A study of Mus musculus with 3 samples.

Results

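Astrocyte glutamate, potassium and water handling is described here through 8 genes, Slc1a1, Slc1a2, Slc1a3, Glul, Aqp4, Gja1, Kcnj10 and Kcnj16. They were chosen by name and were all found among the 32285 genes of the count tables. Their RNA was measured by single-nucleus sequencing in the hippocampus of 3 adult female mice of genotype Scn8aD/+, a heterozygous allele of the sodium channel gene Scn8a, whose titles label them post-onset. All 3 carry the allele, no control animals were analysed here, and each mouse is a batch of its own, which leaves batch and animal inseparable. Every comparison below sets 1 class of nuclei against another in these animals, and none of them bears on the effect of the allele.

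Excitatory synapses depend on glial cells that take glutamate back from the cleft. Slc1a2 (GLT-1, EAAT2) and Slc1a3 (GLAST, EAAT1) are the sodium-driven glutamate transporters of astrocytes, and Slc1a1 (EAAC1, EAAT3) is the transporter best known from neurons. Glul encodes glutamine synthetase, which turns the recovered glutamate into glutamine for return to neurons. Kcnj10 (Kir4.1) and Kcnj16 (Kir5.1) are inward rectifier channel subunits that can assemble with each other and carry potassium that firing neurons release. Aqp4 is the water channel of astrocyte endfeet at vessels, and Gja1 (connexin 43) builds the gap junctions through which astrocytes pass ions and metabolites to each other.

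The genes lie on mm10 (GRCm38) in the GENCODE M21 annotation at chr2:102658659-102790784 on the plus strand (Slc1a2), chr15:8634124-8710764 on the minus strand (Slc1a3), chr19:28835049-28913960 plus (Slc1a1), chr1:153899944-153909723 plus (Glul), chr10:56377330-56402513 plus (Gja1), chr1:172341210-172374085 plus (Kcnj10) and chr11:110968033-111027968 plus (Kcnj16). Aqp4 is the remaining gene.

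RefSeq promoter windows (GRCm38.p6, 250 bases before to 50 after a start) were matched for 7 of the 8 genes, Aqp4 being the exception. The windows of 4 genes, chosen by name and not by a ranking, are shown as examples. Slc1a3 and Gja1 were low in most neuron-like nuclei. Glul was shared by astrocyte-like, oligodendrocyte-like, vascular-like and microglia-like nuclei. Slc1a1 had its lowest mean in astrocyte-like nuclei, with a range that overlapped with oligodendrocyte-like nuclei. Capitals mark the NFI core TTGGC, the SOX core ACAAT and the AP-1 site TGAGTCA, each searched on both strands; no marked sites overlap.
Slc1a3: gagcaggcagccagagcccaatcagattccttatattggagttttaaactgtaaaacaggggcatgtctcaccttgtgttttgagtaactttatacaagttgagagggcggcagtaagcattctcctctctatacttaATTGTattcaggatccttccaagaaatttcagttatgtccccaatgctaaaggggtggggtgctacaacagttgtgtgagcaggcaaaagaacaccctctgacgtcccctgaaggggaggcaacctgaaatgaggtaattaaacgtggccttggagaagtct
Gja1: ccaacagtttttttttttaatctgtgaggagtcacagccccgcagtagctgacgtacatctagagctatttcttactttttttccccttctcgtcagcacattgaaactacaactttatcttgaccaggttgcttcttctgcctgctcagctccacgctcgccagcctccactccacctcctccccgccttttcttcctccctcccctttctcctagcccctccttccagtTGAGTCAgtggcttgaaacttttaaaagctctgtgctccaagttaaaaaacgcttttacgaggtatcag
Glul: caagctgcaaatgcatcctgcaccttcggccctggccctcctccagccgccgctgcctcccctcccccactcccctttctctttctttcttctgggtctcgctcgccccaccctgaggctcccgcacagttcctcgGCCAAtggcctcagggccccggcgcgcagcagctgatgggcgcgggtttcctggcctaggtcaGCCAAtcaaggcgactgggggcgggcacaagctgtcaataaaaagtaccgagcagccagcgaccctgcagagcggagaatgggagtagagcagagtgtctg
Slc1a1: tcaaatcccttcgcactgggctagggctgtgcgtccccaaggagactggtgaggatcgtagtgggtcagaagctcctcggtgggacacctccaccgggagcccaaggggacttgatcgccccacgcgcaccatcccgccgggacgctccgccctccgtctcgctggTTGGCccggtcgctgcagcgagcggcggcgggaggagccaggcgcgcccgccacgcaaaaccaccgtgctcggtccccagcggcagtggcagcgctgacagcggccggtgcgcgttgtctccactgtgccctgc
The Glul window, chr1:153899679-153899978 (plus), held 2 NFI cores, and the Slc1a1 window, chr19:28834885-28835184 (plus), held 1. An NFI core is present in 46.7% of all 32851 windows of this length. The Slc1a3 window, chr15:8710758-8711057 (minus), held 1 SOX core, which 31.0% of windows share. The Gja1 window, chr10:56377050-56377349 (plus), held 1 AP-1 site, present in 5.20% of windows. The number of CG dinucleotides was 32 in the Slc1a1 window and 17 in that of Glul, against 8 for Gja1 and 3 for Slc1a3, where the median over all windows was 7. These matches describe the letters only.

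The libraries of mice 1, 2 and 3 held 8863, 13904 and 4659 barcodes with 100230288, 50931257 and 140527761 UMIs, that is, counted RNA molecules. The library of mouse 2 stood apart in depth, with a median of 1711 UMIs per barcode against 8859 in mouse 1 and 25775 in mouse 3. After filtering 7889, 11807 and 4393 nuclei were kept, and pairs of libraries shared 13 to 36 barcodes. Levels are given in CPM, the UMIs of a gene scaled to the summed UMIs of all nuclei of a class in a mouse. They are levels of nuclear RNA, and protein was not measured. Nuclei are not replicates: n = 3 mice throughout, and each mouse's value is also its within-batch value.

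The astrocyte-like class was 1 cluster of 43, 58 and 122 nuclei in mice 1, 2 and 3, with 225055 UMIs in mouse 1 and 222333 in mouse 2. All 15 astrocyte markers used to name it (Aldoc, Gfap, Aldh1l1, Sox9 and others, none of them a member) were at least 2-fold higher in it than in the other nuclei, and their summed level was 5772, 3000 and 6449 CPM. The members did not take part in clustering or naming. Markers of other cells were present too: 8 pan-glutamatergic neuron markers summed to 29.2%, 70.5% and 17.3% of their neuron-like level in mice 1, 2 and 3, with Tbr1 at 0 in mice 1 and 2. The 8 granule markers summed to 542, 562 and 1603 CPM in astrocyte-like nuclei, or 115%, 162% and 294% of their neuron-like level, with C1ql2, Dsp, Plk5 and Tdo2 at 0 in mice 1 and 2; in mouse 3 this exceeded the 1476 CPM of granule-like nuclei. The 5 Lamp5 markers summed to 262, 207 and 278 CPM, above their neuron-like level in each mouse, and the 8 CA1 markers were at 49.4%, 94.0% and 26.6% of theirs. Also above in each mouse were Pvalb markers (138, 58.5 and 107 CPM) and microglia markers (80.0, 306 and 45.0 CPM). So were pericyte markers (107, 58.5 and 70.7 CPM, with Rgs5, Abcc9, Vtn and Higd1b at 0 in mice 1 and 2). Vascular leptomeningeal markers were above too (80.0, 36.0 and 48.2 CPM). The CA3, mossy, Sst, Vip, Cnr1 and pan-inhibitory markers stayed below their neuron-like level in each mouse. Glial markers from other classes were present as well, with oligodendrocyte markers at 413, 940.0 and 358 CPM and OPC markers at 191, 585 and 339 CPM, Cspg4 being at 0 in mice 1 and 2. The ependymal markers Ccdc153 and Tmem212 were at 0 in all 3 mice. The part of RNA from other cells in each member's level was not tested, and values without mouse 2 are given for Slc1a1 and Slc1a2.

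Against neuron-like nuclei, astrocyte-like nuclei had higher levels of 7 of the 8 genes and a lower level of Slc1a1. Calls required both an adjusted p below 0.05 and a change of 1 or more on the log2 scale, up or down (edgeR quasi-likelihood test with mouse as a block, Benjamini-Hochberg adjustment over all 16002 genes tested). All 8 members were called, where 21% of all genes tested were called in either direction; 10.2% of genes were higher and 10.8% lower. The median log2 fold change of the members was 6.78, against -0.13 over all genes tested. The same 8 were called without mouse 2.

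Slc1a2 stood at 8371, 4187 and 8501 CPM in astrocyte-like nuclei of mice 1, 2 and 3, against 176, 200.3 and 266 CPM in neuron-like nuclei. Every astrocyte-like value lay above every neuron-like value, and mouse 2 had the lowest astrocyte-like level. Astrocyte-like over neuron-like nuclei had a log2 fold change of 4.63 ± 0.58 (SE, edgeR adjusted p = 0.000163), and of 4.81 without mouse 2. After each nucleus was thinned to 1000 UMIs, 97.6%, 87.0% and 96.7% of astrocyte-like nuclei held at least 1 Slc1a2 UMI, against 6.79%, 16.3% and 11.8% of microglia-like nuclei, the class taken as background. Median depths before thinning were 4521, 2466.5 and 10641.5 UMIs in astrocyte-like nuclei and 2453, 1350.5 and 6401 UMIs in microglia-like nuclei.

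Slc1a3, the companion astrocyte transporter, stood at 1679.6, 837 and 2102 CPM in astrocyte-like nuclei, against 5.53, 10.8 and 7.16 CPM in neuron-like nuclei. The groups were far apart in every mouse. Its log2 fold change was 7.24 ± 0.55 (SE, edgeR adjusted p = 3.64e-06).

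Slc1a1 ran the other way. It had 4.44, 67.5 and 36.0 CPM in astrocyte-like nuclei, against 131, 108 and 149 CPM in neuron-like nuclei. Its mean level in astrocyte-like nuclei was the lowest of the 15 classes compared. The range overlapped with the 36.2 to 70.9 CPM of oligodendrocyte-like nuclei, the next in order. The astrocyte-like value of mouse 1 rests on 1 UMI, with an exact Poisson interval of 0.112 to 24.8 CPM that covers counting error only. The astrocyte-like values were spread widely but stayed below all neuron-like values. The log2 fold change was -2.35 ± 0.49 (SE, edgeR adjusted p = 0.00507), and -3.09 without mouse 2. The astrocyte-like level of Slc1a1 was 3.39%, 62.3% and 24.1% of the neuron-like level in mice 1, 2 and 3, beside the 29.2%, 70.5% and 17.3% of the pan-glutamatergic markers. An opposite-strand gene, 4430402I18Rik, overlaps Slc1a1 and had 15170 UMIs, 25 of them in astrocyte-like nuclei, against 33414 for Slc1a1. No source used here states whether strand entered the counting, so reads of the 2 genes may not be fully separated. The part of this overlap in the lower astrocyte-like level of Slc1a1 was not tested.

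Glul stood at 631, 297 and 389 CPM in astrocyte-like nuclei and at 6.07, 10.5 and 7.48 CPM in neuron-like nuclei. The values did not overlap, and the log2 fold change was 5.38 ± 0.42 (SE, edgeR adjusted p = 3.86e-06). Teddm2 overlaps Glul on the opposite strand and had 2306 UMIs, 7 of them in astrocyte-like nuclei, against 5217 for Glul. Glul levels and shares in the other classes therefore carry the same uncertainty as those of Slc1a1. Opposite-strand genes also overlap Aqp4 (Gm50048, 179 UMIs, 21 of them astrocyte-like, against 1558) and Slc1a2 (Gm13872, 317 UMIs, 77 of them astrocyte-like, against 71489). Their reads may likewise not be fully separated. Aqp4 had 369, 202 and 554 CPM in astrocyte-like nuclei, against 1.37, 1.67 and 2.20 CPM in neuron-like nuclei. Its groups were separated in every mouse, with a log2 fold change of 7.32 ± 0.39 (SE, edgeR adjusted p = 2.79e-07). Gja1 had 315, 184 and 242 CPM in astrocyte-like nuclei and stayed under 1 CPM in the neuron-like nuclei of all 3 mice, at 0.424, 0.625 and 0.717 CPM. Its log2 fold change was 8.34 ± 0.41 (SE, edgeR adjusted p = 2.61e-07).

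The potassium channel subunits were both higher in astrocyte-like nuclei, at very different depths of sampling. Kcnj10 had 120.0, 117 and 248 CPM in astrocyte-like nuclei, against 0.610, 2.60 and 1.47 CPM in neuron-like nuclei, with a log2 fold change of 6.50 ± 0.44 (SE, edgeR adjusted p = 1.17e-06). Kcnj16 had 13.3, 17.99 and 36.0 CPM in astrocyte-like nuclei, from 3, 4 and 56 UMIs, against 0.106, 0.312 and 0.0853 CPM in neuron-like nuclei. Its log2 fold change was 7.05 ± 0.78 (SE, edgeR adjusted p = 6.39e-05). The Kcnj16 interval in mouse 1 was 2.75 to 39.0 CPM (exact Poisson, 95%), so its level in that mouse is known only roughly.

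**Figure D1:**
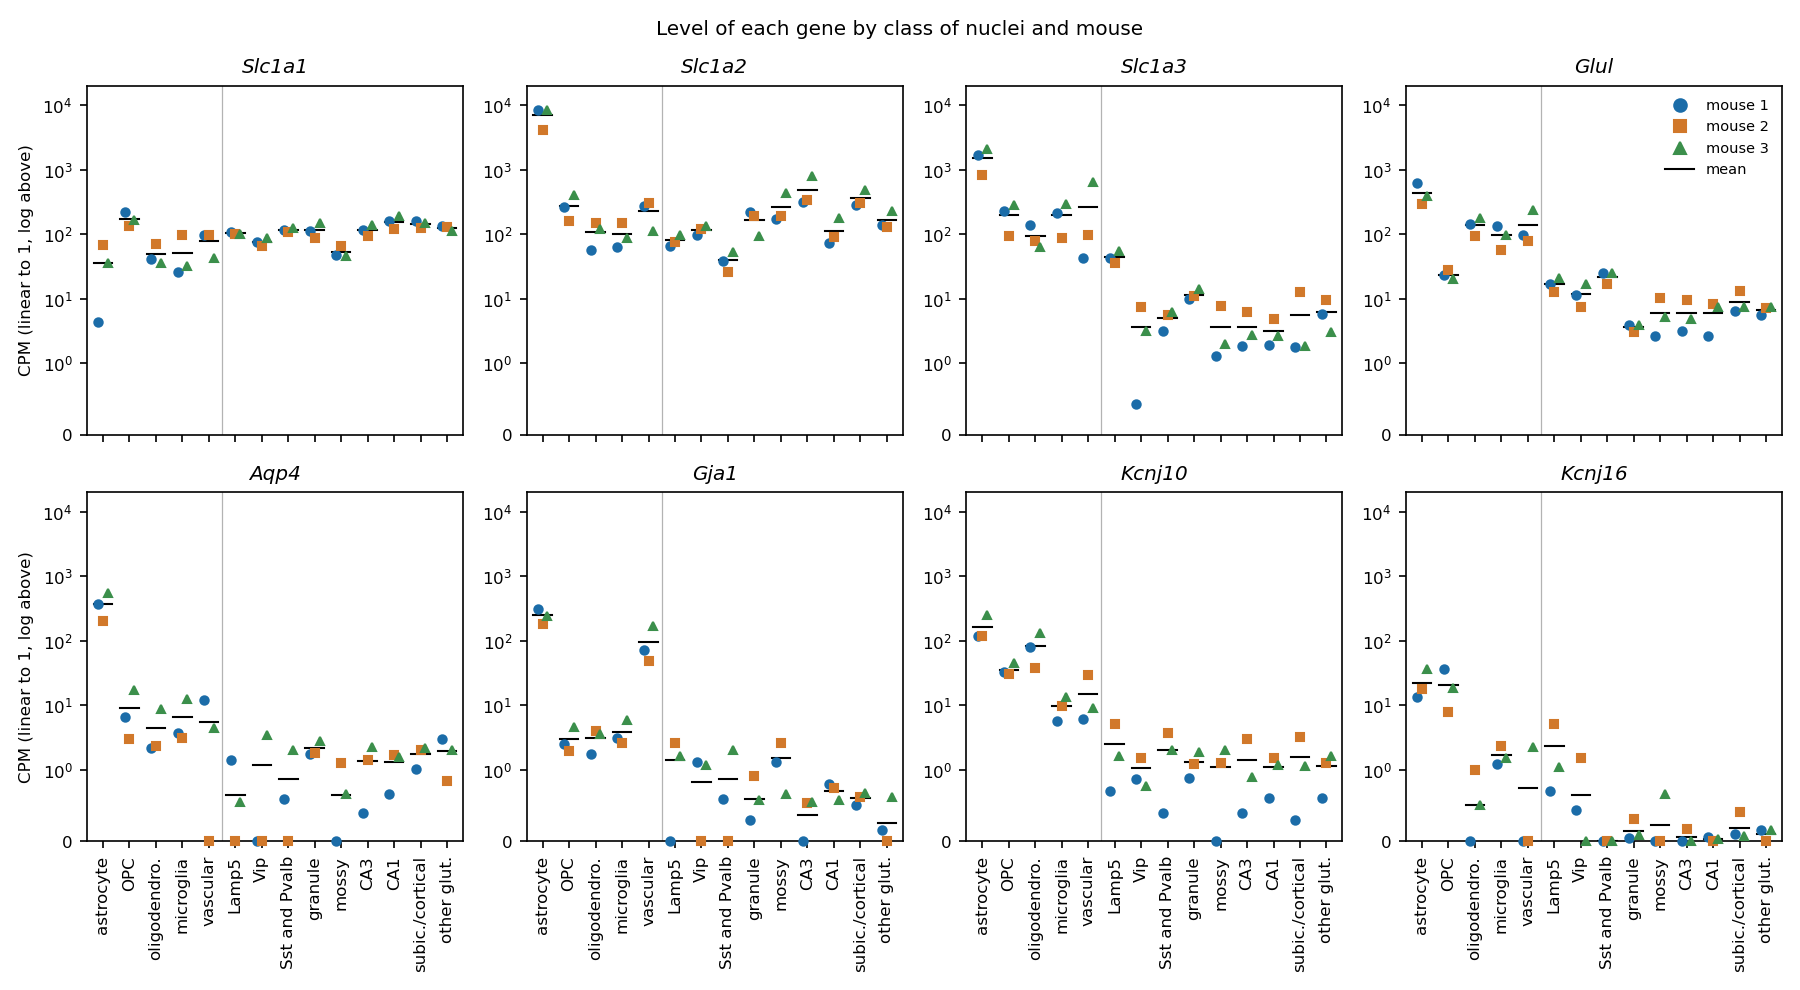
Level of each gene (CPM, linear up to 1 and logarithmic above) in 14 classes of nuclei, with 1 point per mouse and a bar for the mean of the 3 mice. The astrocyte column has the highest mean for every gene except Slc1a1, where it has the lowest, and the glial and vascular classes stand left of the grey line; Cajal-Retzius-like nuclei, the remaining class, are not drawn.

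The other glial classes separated the members further. Against oligodendrocyte-like nuclei, 6 of the 8 members were higher in astrocyte-like nuclei and none was lower, where 19.1% of the 12688 genes tested were called in either direction, 10.3% higher and 8.73% lower. Aqp4 and Gja1 were near the floor of oligodendrocyte-like nuclei: Aqp4 had 2.15, 2.32 and 8.67 CPM there, and Gja1 had 1.76, 3.98 and 3.57 CPM. Their log2 fold changes over oligodendrocyte-like nuclei were 6.39 ± 0.38 for Aqp4 and 6.18 ± 0.40 for Gja1 (SE, edgeR adjusted p = 3.84e-05 and 4.93e-05).

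Glul, by contrast, was plainly present in oligodendrocyte-like nuclei, at 147, 94.8 and 179 CPM. The astrocyte-like values given above were higher in 3 of 3 mice and did not overlap with these. The log2 fold change was 1.47 ± 0.29 (SE, edgeR adjusted p = 0.00785); the call was lost without mouse 1 (1.33, adjusted p = 0.0572) and without the mouse block (1.45, adjusted p = 0.0536).

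Kcnj10 did not pass the test between astrocyte-like and oligodendrocyte-like nuclei. Its level was 80.4, 37.8 and 131 CPM in oligodendrocyte-like nuclei, and the astrocyte-like value was the higher of the pair in each mouse, while the ranges over mice overlapped. The log2 fold change was 0.87 ± 0.29 (SE, edgeR adjusted p = 0.0752). It was called without doublet removal (1.05, adjusted p = 0.0196) and with each library clustered alone (1.04, adjusted p = 0.0306). Slc1a1 did not pass either, at 41.9, 70.9 and 36.2 CPM in oligodendrocyte-like nuclei and a log2 fold change of -0.57 ± 0.41 (SE, edgeR adjusted p = 0.410).

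Kcnj16 was at or under 1 CPM in oligodendrocyte-like nuclei. It had 0, 0.994 and 0.510 CPM there, from 0, 3 and 2 UMIs, and all astrocyte-like values were above these. The log2 fold change was 5.40 ± 0.72 (SE, edgeR adjusted p = 0.00116). Without mouse 3, and after thinning, Kcnj16 was too low to be tested, which left 5 members called. Among oligodendrocyte-like nuclei, 344, 104 and 301 held a Kcnj10 UMI in mice 1, 2 and 3, whereas 0, 3 and 2 held a Kcnj16 UMI. A count of 0 among the 1636 oligodendrocyte-like nuclei of mouse 1 allows a share of up to 0.183% of nuclei with a UMI at their median depth of 2874.5 UMIs, and sets no limit on nuclei that express the gene.

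Oligodendrocyte precursor-like (OPC-like) nuclei divided the same genes in another way. Against them 6 of the 8 members were higher in astrocyte-like nuclei and Slc1a1 was lower, where 13.4% of the 10330 genes tested were called in either direction, 7.09% higher and 6.32% lower. Slc1a1 had 226, 136 and 165 CPM in OPC-like nuclei, the highest mean level of the 15 classes, although its range over mice overlapped with that of CA1-like nuclei, the next in order. The astrocyte-like values of Slc1a1 lay below all of these, with a log2 fold change of -2.31 ± 0.50 (SE, edgeR adjusted p = 0.0134); without the mouse block the adjusted p was 0.0514. Kcnj16 had 36.5, 7.89 and 18.5 CPM in OPC-like nuclei. Its ranges in astrocyte-like and OPC-like nuclei overlapped, the log2 fold change was 0.36 ± 0.47 (SE, edgeR adjusted p = 0.702), and the sign turned to -0.45 without mouse 3. Kcnj10 had 32.4, 30.6 and 44.5 CPM in OPC-like nuclei, all below the astrocyte-like values (log2 fold change 2.10 ± 0.26 SE, edgeR adjusted p = 0.000886).

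Slc1a2 had 264, 161 and 407 CPM in OPC-like nuclei and was higher in astrocyte-like nuclei by 4.64 ± 0.35 on the log2 scale (SE, edgeR adjusted p = 0.000115). Slc1a3 had 231, 95.7 and 282 CPM in OPC-like nuclei, and its log2 fold change in astrocyte-like over OPC-like nuclei was 2.91 ± 0.27 (SE, edgeR adjusted p = 0.00024). Glul was low in OPC-like nuclei, at 23.2, 27.6 and 20.2 CPM, with a log2 fold change of 4.12 ± 0.32 (SE, edgeR adjusted p = 0.000125). The 15 astrocyte markers together reached 5.36%, 5.20% and 6.51% of their astrocyte-like level in OPC-like nuclei of mice 1, 2 and 3, and their part in these values was not tested.

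**Figure D2:**
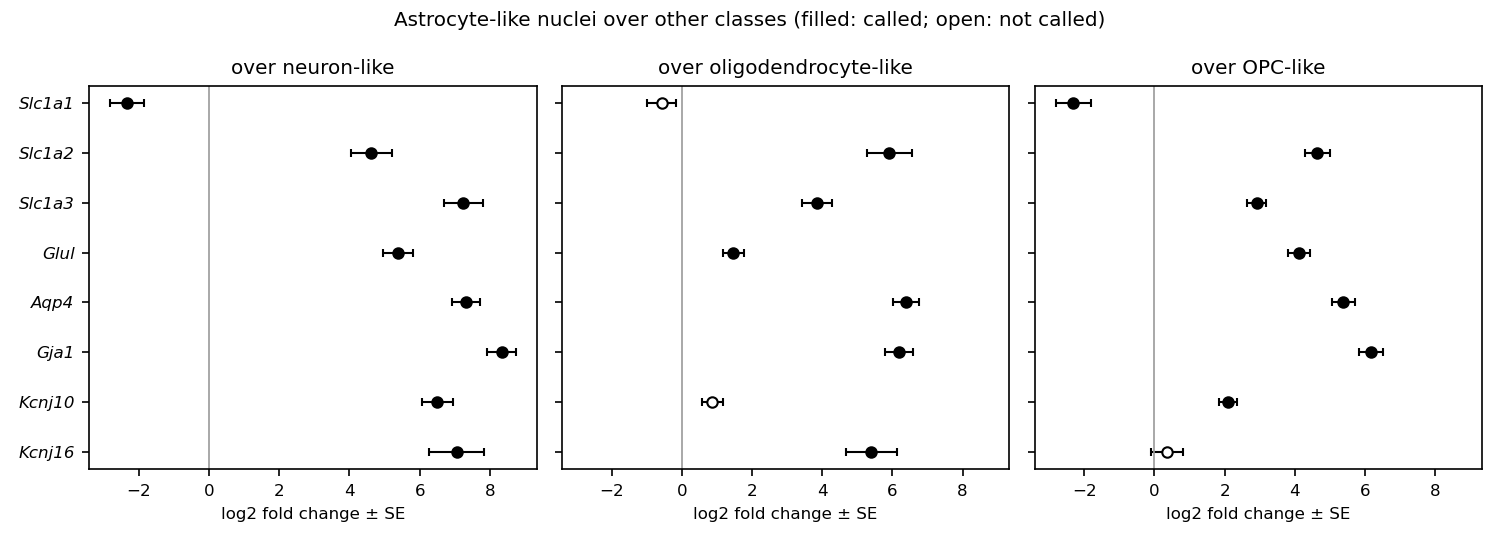
Log2 fold change of each gene in astrocyte-like nuclei over neuron-like, oligodendrocyte-like and OPC-like nuclei, with bars of 1 SE (edgeR, 3 mice). Filled points were called and open points were not: Slc1a1 and Kcnj10 over oligodendrocyte-like and Kcnj16 over OPC-like nuclei.

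Within the oligodendrocyte lineage the channel subunits differed in opposite directions. OPC-like nuclei had more Slc1a1 and Kcnj16 and less Glul and Kcnj10 than oligodendrocyte-like nuclei, that is, 4 of the 7 members tested were called, where 16% of the 12344 genes tested were called in either direction, 8.49% higher and 7.56% lower. Kcnj16 was higher by 5.40 ± 0.89 on the log2 scale (SE, edgeR adjusted p = 0.0169) and Slc1a1 by 1.84 ± 0.33 (adjusted p = 0.0207). Glul fell by 2.57 ± 0.30 in OPC-like nuclei (adjusted p = 0.00878). Kcnj10 was lower in OPC-like nuclei in 3 of 3 mice with overlapping ranges, at a log2 fold change of -1.13 ± 0.28 (SE, edgeR adjusted p = 0.0469). With only mice 1 and 2, edgeR called no gene of all in this comparison (2650 had an unadjusted p under 0.05), and without mouse 1 only Glul and Kcnj16 were called among the members.

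**Figure D3:**
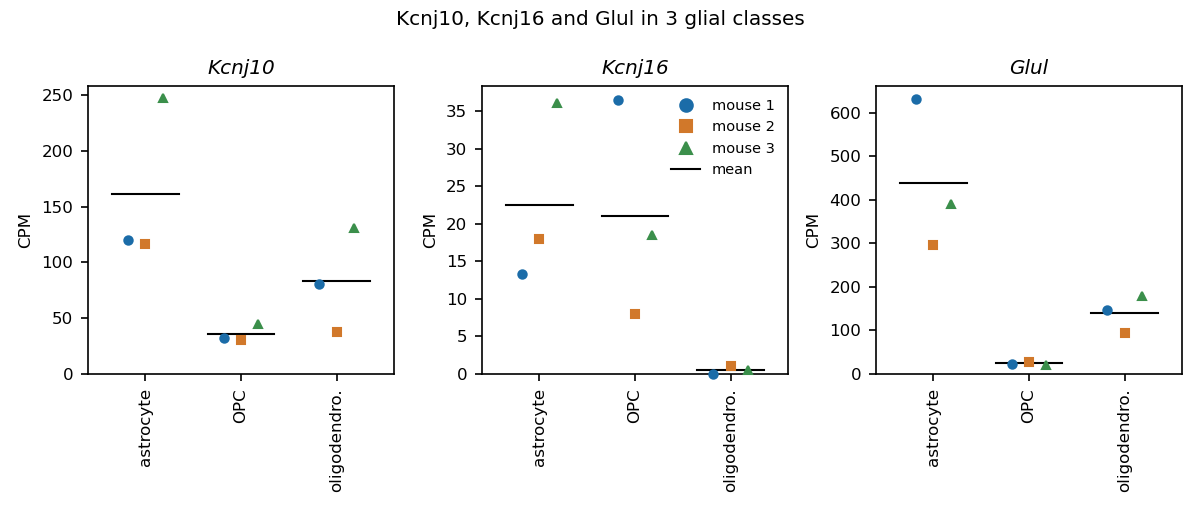
Levels of Kcnj10, Kcnj16 and Glul (CPM) in astrocyte-like, OPC-like and oligodendrocyte-like nuclei, 1 point per mouse with a bar for the mean. Kcnj10 and Glul have their lowest means in the OPC column, whereas Kcnj16 is lowest in the oligodendrocyte column, at 0.994 CPM or less.

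Oligodendrocyte-like nuclei also differed from neuron-like nuclei. Slc1a3, Glul, Gja1 and Kcnj10 were higher and Slc1a1 and Slc1a2 lower, which makes 6 of 7 members tested, where 26.5% of the 16759 genes tested were called in either direction, 12.8% higher and 13.7% lower. The log2 fold changes were 5.65 ± 0.73 for Kcnj10, 3.94 ± 0.36 for Glul, 3.37 ± 0.45 for Slc1a3 and 2.14 ± 0.39 for Gja1 (SE, edgeR adjusted p between 0.0131 and 0.0228). Gja1 was called from levels near the floor, at 1.76, 3.98 and 3.57 CPM in oligodendrocyte-like nuclei. The 15 astrocyte markers together were at 1.09%, 3.28% and 1.68% of their astrocyte-like level there. Their part in the Gja1 and Slc1a3 values was not tested. Slc1a2 was at 56.5, 150.4 and 120 CPM in oligodendrocyte-like nuclei, below all neuron-like values, at a log2 fold change of -1.26 ± 0.31 (SE, edgeR adjusted p = 0.0375). No gene of all passed in this comparison without mouse 1 or without mouse 3, when 4140 and 5099 genes had an unadjusted p under 0.05.

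Levels in microglia-like and vascular-like nuclei are described without a test. Microglia-like nuclei held 216, 87.1 and 298 CPM of Slc1a3 and 134, 57.0 and 99.3 CPM of Glul. The 15 astrocyte markers together were at 1.85%, 3.25% and 1.54% of their astrocyte-like level in them, and Slc1a3 was at 12.8%, 10.4% and 14.2% of its own; the part of astrocyte RNA in these values was not tested. Gja1 had its second highest mean level in vascular-like nuclei, at 73.2, 48.8 and 167 CPM from 12, 5 and 75 UMIs, a range that did not overlap with the astrocyte-like one. Glul in vascular-like nuclei ranged from 78.1 to 239 CPM over the mice, a range that overlapped with that of oligodendrocyte-like nuclei. Slc1a3 in vascular-like nuclei ranged from 42.7 CPM in mouse 1 to 653 CPM in mouse 3, and the astrocyte markers there were at 7.93% to 11.1% of their astrocyte-like level. The vascular-like class was mixed, with pericyte markers at 2392, 576 and 1398 CPM in mice 1, 2 and 3. Vascular leptomeningeal markers in it were at 299, 439 and 2885 CPM. Whether astrocyte RNA or this make-up adds to the vascular values was not tested.

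Among neuron-like nuclei, Slc1a2 was the member with the clearest division. It had 316, 345 and 797 CPM in CA3-like nuclei, against 73.0, 91.7 and 177 CPM in CA1-like nuclei. CA3-like values were the higher in every mouse and did not overlap with CA1-like values, while mouse 3 was the highest in both classes. CA3-like over CA1-like nuclei had a log2 fold change of 2.14 ± 0.10 (SE, edgeR adjusted p = 0.00103) and ranged from 1.72 to 2.32 over the alternative settings. Slc1a2 was the only 1 of 6 members tested to be called, where 8.39% of the 14864 genes tested were called in either direction, 4.71% higher and 3.68% lower; without the mouse block its adjusted p was 0.243. The summed astrocyte markers were at 166, 150.2 and 96.5 CPM in CA3-like nuclei and at 83.1, 75.9 and 106 CPM in CA1-like nuclei, and their part in the Slc1a2 difference was not tested.

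Subicular or cortical glutamatergic-like nuclei came next after CA3-like nuclei in Slc1a2, at 284, 305 and 492 CPM, and these ranges overlapped. Sst and Pvalb interneuron-like nuclei had the lowest level of all classes, at 38.3, 26.1 and 53.8 CPM, below the whole range of the Lamp5-like nuclei above them. Inhibitory neuron-like nuclei together had 62.7, 116 and 79.6 CPM of Slc1a2, against 191, 225 and 286 CPM in glutamatergic neuron-like nuclei. The values were the lower in every mouse (log2 fold change -1.60 ± 0.20 SE, edgeR adjusted p = 0.00735). The inhibitory group differed in make-up: 13 of 561, 1309 of 1480 and 2 of 286 nuclei in mice 1, 2 and 3 had no subtype name. Those of mouse 2 had 140 CPM of Slc1a2 and pan-glutamatergic markers at 66.8% of their neuron-like level. Their part in the comparison was not tested. Granule-like nuclei had 223, 193 and 93.2 CPM, against 154, 222 and 398 CPM in CA pyramidal-like nuclei, which overlapped, and the difference was not called (-0.51 ± 0.43 SE, edgeR adjusted p = 0.448). Its sign turned to 0.24 without mouse 3.

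Slc1a1 was not called between any of the 3 pairs of neuron-like groups, while single classes ranged from CA1-like nuclei at the top to mossy-like nuclei at the bottom. CA3-like nuclei had 117, 94.0 and 138 CPM, against 159, 123 and 191 CPM in CA1-like nuclei; the level was lower in 3 of 3 mice but the ranges overlapped, and the log2 fold change of -0.37 ± 0.08 (SE, edgeR adjusted p = 0.0311) did not reach the fold required. Granule-like nuclei had 114, 87.9 and 152 CPM, against 145, 108 and 172 CPM in CA pyramidal-like nuclei (-0.23 ± 0.15 SE, edgeR adjusted p = 0.334). Inhibitory neuron-like nuclei had 106, 103 and 113 CPM, against 135, 110.0 and 153 CPM in glutamatergic neuron-like nuclei (-0.42 ± 0.12 SE, edgeR adjusted p = 0.0537). Mossy-like nuclei had the lowest mean among neuron-like classes, at 47.2, 65.9 and 46.5 CPM, all below the CA1-like values.

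Slc1a3 and Glul were low in neurons but not evenly so. Slc1a3 had 9.79, 11.02 and 14.0 CPM in granule-like nuclei, against 1.91, 5.55 and 2.66 CPM in CA pyramidal-like nuclei, with no overlap. It was called at a log2 fold change of 2.01 ± 0.29 (SE, edgeR adjusted p = 0.0015), the only 1 of 7 members tested, where 17.9% of the 16173 genes tested were called in either direction, 5.97% higher and 11.9% lower. After thinning, the difference was 1.25 and no longer called (adjusted p = 0.121). Lamp5-like interneuron nuclei had 42.3, 36.1 and 55.6 CPM of Slc1a3. This was the highest mean of the neuron-like classes, with a range that overlapped with Cajal-Retzius-like nuclei, and their summed astrocyte markers were 184, 160 and 170.1 CPM. The Lamp5-like class was not tested on its own.

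Inhibitory neuron-like nuclei had 19.7, 16.3 and 22.3 CPM of Glul, against 4.23, 8.88 and 5.89 CPM in glutamatergic neuron-like nuclei. The groups did not overlap (log2 fold change 1.58 ± 0.27 SE, edgeR adjusted p = 0.0142). In mouse 2 the 1309 inhibitory nuclei without a subtype name, described above, had 17.8 CPM of Glul. Glul and Slc1a2 were the 2 called of 7 members tested, where 14.7% of the 16557 genes tested were called in either direction, 7.69% higher and 6.98% lower. Without mouse 1 neither was called, without mouse 3 Glul was not (1.47, adjusted p = 0.0597), and after thinning Glul was at 0.81 (adjusted p = 0.398). Aqp4, Gja1 and Kcnj10 were near or under 4 CPM in all 3 pairs of neuron-like groups, and none of them was called where tested. Kcnj16 was too low to be tested in these pairs.

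**Figure D4:**
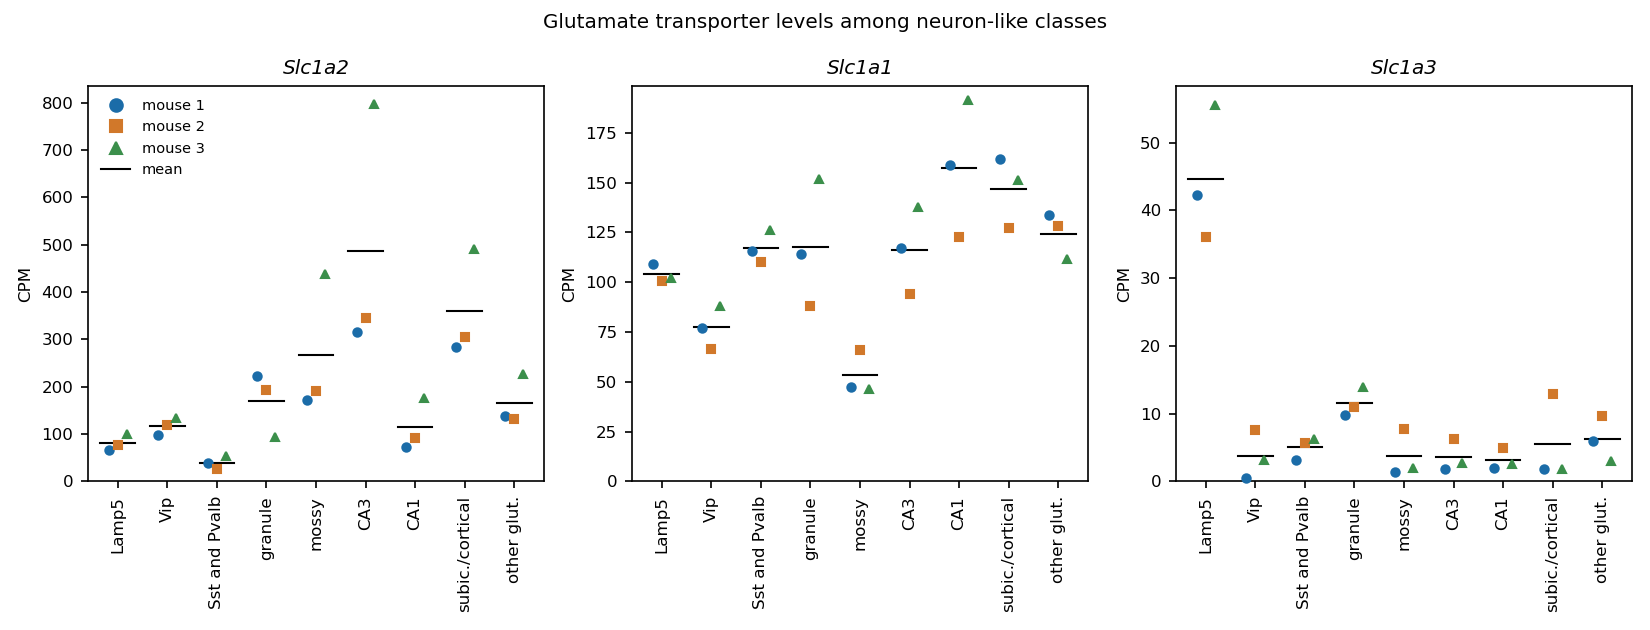
Levels of Slc1a2, Slc1a1 and Slc1a3 (CPM, linear axes from 0) in 9 neuron-like classes, 1 point per mouse with a bar for the mean. Slc1a2 peaks in CA3-like nuclei (316 to 797 CPM), Slc1a1 is lowest in mossy-like nuclei and Slc1a3 is highest in Lamp5-like nuclei.

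Because classes differ in number and depth, the class with the highest level did not always hold most of a gene's UMIs. Astrocyte-like nuclei held 11.8%, 9.68% and 28.8% of the Slc1a2 UMIs of kept nuclei in mice 1, 2 and 3, whereas neuron-like nuclei held 82.9%, 60.1% and 68.0%. For Kcnj10, oligodendrocyte-like nuclei held 77.0%, 32.1% and 44.0% of UMIs, and astrocyte-like nuclei 5.06%, 7.32% and 32.9%. Glul was spread over oligodendrocyte-like nuclei (46.1%, 25.8% and 28.4%), neuron-like nuclei (28.1%, 27.4% and 35.4%) and astrocyte-like nuclei (8.71%, 5.95% and 24.4%). Astrocyte-like nuclei held 38.4%, 33.3% and 71.4% of Aqp4 UMIs, and neuron-like nuclei 47.7%, 35.6% and 21.4%, so that neuron-like nuclei held the larger share in mice 1 and 2. Gja1 UMIs lay in astrocyte-like nuclei at 53.4%, 38.7% and 66.2%, and in neuron-like nuclei at 24.1%, 17.0% and 14.8%. The neuron-like levels of these 2 genes were near the floor, at 1.37, 1.67 and 2.20 CPM for Aqp4 and 0.424, 0.625 and 0.717 CPM for Gja1. The part of astrocyte RNA in the neuron-like shares was not tested. These shares depend on how many nuclei of each class passed the sort: neuron-like nuclei numbered 4991, 4845 and 3252 of the 7889, 11807 and 4393 kept.

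**Figure D5:**
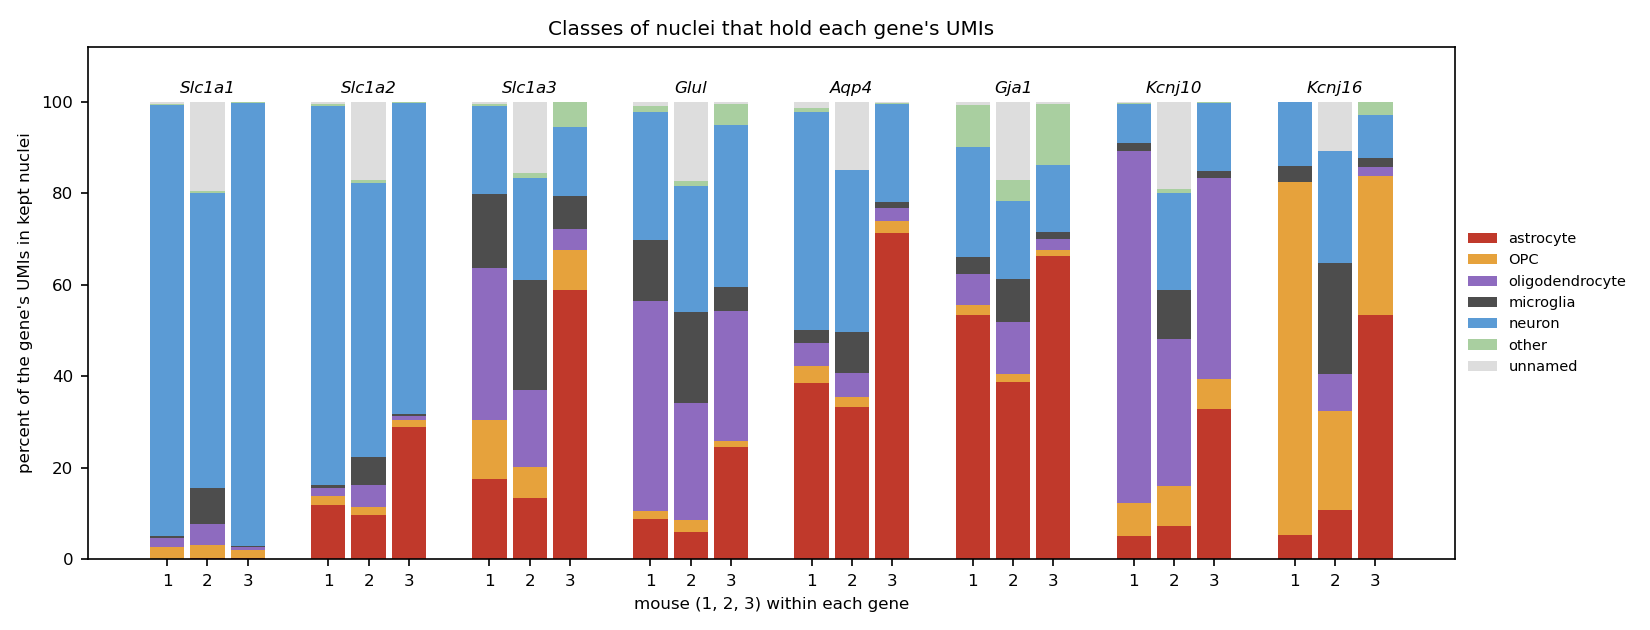
Percent of each gene's UMIs in kept nuclei that lay in each class, with 1 stacked bar per mouse. Neuron-like nuclei hold most Slc1a1 and Slc1a2 UMIs in every mouse, while the astrocyte share is the largest in mouse 3 for every gene but Slc1a1.

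Detection per nucleus was counted for the 7 genes higher in astrocyte-like nuclei. They were picked as higher in this class, so larger counts here than in oligodendrocyte-like nuclei were set in advance. After thinning to 1000 UMIs, the median nucleus held UMIs of 3, 2 and 3 of these 7 genes in mice 1, 2 and 3, and 26 of 42, 21 of 54 and 72 of 122 nuclei held 3 or more. In oligodendrocyte-like nuclei the median was 0 in each mouse, and 3 of 1630, 2 of 1013 and 9 of 593 nuclei held 3 or more. Kcnj10 and Kcnj16 UMIs were found in the same nucleus in 2, 2 and 26 astrocyte-like nuclei. Kcnj10 was found in 12, 16 and 89 of these nuclei in all, and Kcnj16 in 3, 4 and 31. Whether genes met in a nucleus more often than their separate rates give was not tested. Nuclei of a mouse share a library, so these are descriptions.

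Other genes of the same processes were divided less uniformly. Named genes are among the 3 called genes with the largest change per list, and values after a gene name are log2 fold changes ± SE from the same edgeR fits. The list counts stand beside shares over all genes tested of 10.2% higher and 10.8% lower against neuron-like, 10.3% and 8.73% against oligodendrocyte-like, and 7.09% and 6.32% against OPC-like nuclei. Of 17 genes of the glutamate and glutamine cycle, 16 were tested in astrocyte-like against neuron-like nuclei, with 5 higher and 2 lower and a median log2 fold change of -0.65. The largest was Slc38a3 (SNAT3), a glutamine carrier, at 191, 36.0 and 39.2 CPM in astrocyte-like nuclei, against 1.09, 0.937 and 0.512 CPM in neuron-like nuclei (6.09 ± 0.46 SE). Slc7a11, the cystine-glutamate exchanger, followed at 5.19 ± 0.69, and the neutral amino acid carrier Slc1a5 at 2.88 ± 0.87. Against oligodendrocyte-like nuclei 4 of 15 were higher and 1 lower, led by Slc7a11 (6.39 ± 0.79), Slc38a3 (5.67 ± 0.47) and Slc1a4 (3.66 ± 0.35). Against OPC-like nuclei 4 of 12 were higher and 1 lower, led by Slc7a11 (6.27 ± 0.67), the glutamate dehydrogenase gene Glud1 (2.08 ± 0.27) and Slc1a4 (1.94 ± 0.26).

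Of 19 genes of potassium and ion balance, 17 were tested against neuron-like nuclei, with 4 higher and 5 lower in astrocyte-like nuclei and a median of -0.62. Atp1b2, a beta subunit gene of the sodium pump, had 351, 144 and 445 CPM in astrocyte-like nuclei, against 5.23, 3.401 and 3.28 CPM in neuron-like nuclei (5.87 ± 0.39 SE). The pump regulator gene Fxyd1 was higher by 5.69 ± 0.33. Against oligodendrocyte-like nuclei 7 of 17 were higher and 3 lower, the higher ones including Atp1b2 (5.06 ± 0.34) and the bicarbonate carrier Slc4a4 (4.77 ± 0.69). Against OPC-like nuclei 5 of 16 were higher and 1 lower, with Fxyd1 (5.27 ± 0.38), Slc4a4 (3.85 ± 0.42) and Atp1b2 (3.22 ± 0.35) leading.

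Among 14 genes of water handling and endfoot anchoring, 12 were tested against neuron-like nuclei, with 4 higher, none lower and a median of 0.62. Mlc1, a membrane protein of endfeet, had 124, 108 and 143 CPM in astrocyte-like nuclei, against 0.265, 0.729 and 0.503 CPM in neuron-like nuclei (7.70 ± 0.40 SE). Hepacam, its partner, was higher by 5.98 ± 0.61 and the utrophin gene Utrn by 2.25 ± 0.34. Mlc1 also led against oligodendrocyte-like nuclei (6.10 ± 0.40), where 6 of 11 were higher and 1 lower, and against OPC-like nuclei (5.77 ± 0.51), where 3 of 11 were higher and none lower.

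The 9 gap junction genes split by glial class. Gjb6 (connexin 30), the other astrocytic connexin, was the only 1 of 7 called against neuron-like nuclei, at 213, 81.0 and 217 CPM in astrocyte-like nuclei, against 0.0398, 0.208 and 0.392 CPM in neuron-like nuclei (9.37 ± 0.61 SE). The oligodendrocyte connexin gene Gjc3 had 17.8, 4.50 and 0.643 CPM in astrocyte-like nuclei, against 740.1, 284 and 254 CPM in oligodendrocyte-like nuclei (-6.72 ± 0.55 SE). Among OPC-like nuclei Gjc3 was also the higher, with astrocyte-like over OPC-like nuclei at -5.67 ± 0.54.

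Of 15 genes reported as raised in reactive astrocytes, 8 were tested against neuron-like nuclei, with 6 higher, none lower and a median of 2.97. Vim, an intermediate filament, had 26.7, 256 and 722 CPM in astrocyte-like nuclei, against 2.84, 5.31 and 11.4 CPM in neuron-like nuclei (4.84 ± 0.51 SE). Osmr, a cytokine receptor, had 26.7, 17.99 and 122 CPM, against 0.172, 0.625 and 0.819 CPM (6.28 ± 0.53 SE). S1pr3, a lipid receptor, was at 3.83 ± 0.94. Each of these was highest in mouse 3, and with 1 library a mouse and no controls the spread among mice cannot be told apart from batch. Vim, Osmr and S1pr3 were among 5 of 7 tested that were higher over oligodendrocyte-like nuclei, and 2 of 7 were higher and Cp lower over OPC-like nuclei.

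In CA3-like over CA1-like nuclei, where 4.71% of all genes tested were higher and 3.68% lower, 3 of 17 potassium and ion genes were higher (Kcnk10 and Slc4a4 among them) and 1 of 11 water genes, Aqp11, while no gene was called among 13 of the glutamate cycle, 5 of gap junctions and 7 of the reactive list. Granule-like over CA pyramidal-like nuclei, with 5.97% of all genes higher and 11.9% lower, had 3 of 14 glutamate cycle genes lower, led by Slc7a11, with 4 of 17 potassium and ion genes higher and 3 lower, and 1 of 11 water genes in each direction; none of 5 gap junction and 8 reactive genes was called. Inhibitory over glutamatergic neuron-like nuclei, with 7.69% of all genes higher and 6.98% lower, had 2 higher and 1 lower of 16 glutamate cycle genes, led by the vesicular glutamate transporter gene Slc17a8 (5.98), with 2 of 17 potassium and ion genes lower, 1 higher and 2 lower of 11 water genes, 1 of 6 gap junction genes higher (Gjd2, the neuronal connexin 36, at 4.82) and 1 of 7 reactive genes lower.

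Oligodendrocyte-like over neuron-like nuclei, with 12.8% of all genes higher and 13.7% lower, had 2 higher and 5 lower of 16 glutamate cycle genes, 3 and 4 of 18 potassium and ion genes, 2 and 4 of 12 water genes and 2 and 1 of 6 gap junction genes, with 1 of 8 reactive genes lower. Gjc3 (7.19) and Hepacam (5.93) had the largest changes. OPC-like over oligodendrocyte-like nuclei, with 8.49% of all genes higher and 7.56% lower, had 3 higher and 1 lower of 13 glutamate cycle genes, 4 and 1 of 16 potassium and ion genes and 3 and 1 of 11 water genes, with 2 of 5 gap junction genes lower and 1 of 4 reactive genes, Cp, higher. Slc38a3 was higher in OPC-like nuclei there by 4.46.

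Genes whose levels followed a member's most closely were ranked by Pearson r of log2(CPM + 1) over 46 class and mouse sums, among 12309 genes averaging at least 5 CPM. The points share libraries and depths, so r is a description. Gja1 was closest to Gjb6 (0.94), S1pr1 (0.94) and Gli3 (0.93). Aqp4 was closest to Mlc1 (0.90), Tril (0.89) and Gfap (0.88). Kcnj10 was closest to Gramd3 (0.92), Arhgef19 (0.90) and Hepacam (0.90), and Kcnj16 to Gpr37l1 (0.88), Pou3f2 (0.87) and Cyp2j9 (0.87). Slc1a3 was closest to Apoe (0.89), Cd9 (0.88) and Lamp1 (0.87), and Glul to St3gal4 (0.89), Ugp2 (0.88) and Cd63 (0.88). Slc1a2 had the lowest first value among the 8, with Gm6145 (0.80), Prdx6 (0.79) and Ttll8 (0.78), and Slc1a1 was closest to Anks1b (0.82), Dpp6 (0.80) and Sntg1 (0.77), its r with other members being -0.33 at most.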

How the data were processed

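Nuclei of 3 mice were stained with propidium iodide, sorted and captured in 10x 3′ libraries, per the labels' protocols. The deposited tables hold raw UMI counts per gene and barcode, made by the authors with Cell Ranger 7.0.0 (mice 1 and 2) or 7.1.0 (mouse 3), per the file headers; mm10 is named in the submitters' processing notes, and no source used here states use of strand. Nuclei with under 500 genes or over 5% mitochondrial UMIs were removed (242, 703 and 1 in mice 1, 2 and 3), as were 732, 1394 and 265 likely doublets; the automatic doublet threshold marked none in mouse 2, so an expected rate of 0.8% per 1000 nuclei was used. Nuclei were clustered (scanpy 1.11.5, leidenalg 0.10.2) with members and listed genes left out, and clusters were named from markers by rules adjusted after the clusters were seen. UMIs were summed per mouse and class and tested in edgeR 4.0.16 (R 4.3.3; TMM, filterByExpr) with mouse as a block. Each mouse gives both classes, and deviations of the paired sums correlated at 0.102 to 0.817. Named list genes were up to 3 called genes of largest change per list. Some genes that this rule names are not reported here. Each SE beside an edgeR log2 fold change was derived from the test, as the absolute change divided by the square root of the quasi-likelihood F statistic. Intervals are 95% exact Poisson and cover counting error only. Alternatives were DESeq2 1.42.0, no block, no low-count filter, each mouse left out, thinning to 1000 UMIs, no doublet removal, clustering per library and adjusted p alone. The members and lists were chosen with earlier results of these data known.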

Additional observations from a re-analysis of the deposited data

Results flagged for a closer look

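Nuclei left without a class name lie outside every comparison, yet they held UMIs of the 8 genes above the limit that a count of 0 allows, which is 3 counts. In mouse 1 they held 0.496% of member UMIs (155 of 31267, in 310 nuclei), in mouse 2 17.7% (3107 of 17584, in 3522 nuclei) and in mouse 3 0.0907% (68 of 75009, in 20 nuclei). The largest unnamed cluster had 2526 nuclei of mouse 2 and was led by Rplp1, Rps29 and Hspa8.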

How the results depend on the processing

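The 3 astrocyte-like comparisons kept their counts of called members within 1.5 times under all 10 alternatives: 7 to 8 against neuron-like, 5 to 7 against oligodendrocyte-like and 6 to 7 against OPC-like nuclei. Leaving out each mouse gave 0 to 6 members for oligodendrocyte-like against neuron-like, 0 to 6 for OPC-like against oligodendrocyte-like and 0 to 2 for inhibitory against glutamatergic nuclei. Thinning gave 3, 2 and 1 in these and 0 for granule-like against CA pyramidal-like nuclei. For CA3-like against CA1-like nuclei, the fit without the replicate block called 0 members and adjusted p alone called 2. Without the block 8, 5 and 6 members were called in the astrocyte-like comparisons against neuron-like, oligodendrocyte-like and OPC-like nuclei, 5 for oligodendrocyte-like against neuron-like, 3 for OPC-like against oligodendrocyte-like, 1 for granule-like and 2 for inhibitory nuclei. Over all genes, the fit without the block called 182 against 1247 with it for CA3-like over CA1-like, 711 against 1385 for astrocyte-like over OPC-like, 1562 against 2895 for granule-like and 1282 against 2428 for inhibitory nuclei. Leaving out each mouse called 1669 to 4506 genes, against 3365, for astrocyte-like over neuron-like, 1062 to 3075, against 2420, over oligodendrocyte-like and 729 to 2233, against 1385, over OPC-like nuclei. It called 0 to 6354, against 4447, for oligodendrocyte-like over neuron-like, 0 to 3143, against 1981, for OPC-like over oligodendrocyte-like and 479 to 2796, against 2428, for inhibitory nuclei. Thinning also lowered the number of genes tested, so its counts are given with that number. It called 1549 of 11136, 1048 of 6175 and 473 of 2508 in the astrocyte-like comparisons. Within the oligodendrocyte comparisons it called 1725 of 12299 and 1083 of 7203. In CA3-like, granule-like and inhibitory nuclei it called 401 of 8159, 1250 of 9793 and 900 of 11747. Adjusted p alone called 2410 in CA3-like and 4197 in inhibitory nuclei. With no low-count filter 2148 of 20987 genes tested were called in astrocyte-like over OPC-like nuclei, against 1385 of 10330 with it.

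Of 556 refitted fold changes of members, 501 kept direction and call, 35 lost the call, 9 gained it and 11 turned sign, none of the last called. Leaving out each mouse gave -0.45 to 0.98 for Kcnj16 in astrocyte-like over OPC-like nuclei. In CA3-like over CA1-like nuclei it gave -0.19 to 0.29 for Glul and -0.36 to 0.28 for Kcnj10, and Glul was at 0.0066 with DESeq2, 0.60 without doublet removal and 0.30 with libraries clustered alone. In granule-like over CA pyramidal-like nuclei it gave -1.06 to 0.24 for Slc1a2 and -0.32 to 0.22 for Gja1, which was at 0.18 without doublet removal and 0.24 with libraries clustered alone. In inhibitory over glutamatergic neuron-like nuclei it gave -0.039 to 0.44 for Kcnj10. The cause was not tested. The 43 and 58 astrocyte-like nuclei of mice 1 and 2 limit the depth for Kcnj16 and Slc1a1.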
